A study of Mus musculus with 4 samples.

Results

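The potassium channel family is described here across 4 RNA-seq libraries of sorted lung cells. Its members are the listed genes whose symbol starts with Kcn followed by a letter, after 3 antisense or opposite-strand symbols (Kcnd3os, Kcnmb4os1 and Kcnq1ot1) were dropped. This gave 94 of the 23990 genes in the joined tables, covering pore subunits, the beta and interacting subunits that assemble with them, and 1 assembly regulator. Potassium channels let potassium leave or enter a cell along its electrochemical gradient and so set the membrane voltage. In epithelia they recycle the potassium that the sodium-potassium pump brings in, and they maintain the driving force for sodium, chloride and fluid transport. Pore subunits form the channel, while Kcne proteins, single-pass membrane subunits, change how fast and at which voltage a pore opens.

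The cells were sorted as alveolar type 1 (AT1) cells, the flat epithelial cells through which gas is exchanged, from lungs of mice of mixed B6 and 129 background at postnatal day 3 to 4. All animals carried Cre recombinase under Scnn1a, a sodium channel gene, which is meant to limit the Cre to cells that express that gene. Strips cut from the lung edge of littermates were digested, and sorted cells were kept after exclusion of dead cells by dye. Both Sox2-labelled libraries have the genotype Scnn1a-Cre; Rosa[Sox2/+], a Cre-dependent Sox2 transgene at the Rosa locus. Both control-labelled libraries have Scnn1a-Cre; Rosa[mTmG/+], a Cre-dependent membrane reporter at the same locus. Sox2, the airway transcription factor that the labels name, was measured first. It stood at 1.41 and 1.99 FPKM in the Sox2-labelled libraries and at 302 and 477 FPKM in the control-labelled libraries (log2 difference -7.15, SE 0.34, limma adjusted p = 2.39e-06). The level of the named gene therefore goes against the labels, and every direction below follows the labels as deposited.

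Values are FPKM, fragments scaled by transcript length and by the fragments mapped in the library, so they can be compared between genes. Each deposited value comes with a lower and an upper bound, whose median half-width was 7.82% to 12.4% of the value per library. Differences are given as Sox2-labelled minus control-labelled libraries on the scale log2(FPKM + 1), with a standard error and a p-value adjusted over all 12040 tested genes. Changes of low genes come out too small on that scale. A gene was called when that p was under 0.05 in limma. The median difference of all tested genes was -0.29. It was 0.00017 after median-of-ratios rescaling and -0.041 after quantile normalization of the libraries.

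The AT1 label was checked on 10 AT1 markers. Of these, 8 were higher in the Sox2-labelled libraries, 2 did not pass and none was lower, and their summed level was 6377 and 7633 FPKM there against 1565 and 809 FPKM in the control-labelled libraries. Markers of other cells differed too. All 10 markers of AT2 cells, the surfactant-making neighbours, were higher in the Sox2-labelled libraries, with sums of 26261 and 18209 FPKM against 6195 and 1019 FPKM. A single marker made up most of these AT2 sums. Without the most abundant marker of each library, they were 5087 and 3408 FPKM against 1192 and 223 FPKM. The AT1 sums were then 3118 and 3896 FPKM against 1069 and 475 FPKM. Of 7 tested markers of basal cells, the airway stem cells, 4 were lower and 1 was higher. The higher one, Cav1, is on the AT1 list as well, and without it, a choice made after seeing the data, the basal sums were 5.79 and 4.29 FPKM against 77.8 and 282 FPKM. Higher members numbered 3 of 10 tested endothelial markers, 1 of 6 pericyte and smooth muscle markers, 1 of 9 fibroblast markers, 1 of 6 leukocyte markers, 1 of 5 red cell markers and the single tested marker of cardiac and skeletal muscle, and none was lower. The endothelial sums were 204 and 141 FPKM against 55.6 and 23.2 FPKM, and the pericyte and smooth muscle sums 81.0 and 40.3 FPKM against 40.4 and 19.0 FPKM. Fibroblast sums were 699 and 233 FPKM against 479 and 105 FPKM, and leukocyte sums 75.3 and 45.1 FPKM against 32.2 and 14.2 FPKM. Red cell sums were 202 and 928 FPKM against 56.3 and 256 FPKM, and muscle sums 15.7 and 12.7 FPKM against 8.71 and 1.92 FPKM. No marker of neurons, glia and neuroendocrine cells was expressed enough to be tested (sums of 0.674 to 2.62 FPKM). No marker on these lists was at 0 in all 4 libraries. With 1 library left out, 7 to 9 AT1, 2 to 10 AT2 and 1 to 8 endothelial markers were higher, and 3 to 5 basal markers were lower. The fewest higher AT2 markers were 2 without Sox2-labelled replicate 2 and 3 without Sox2-labelled replicate 1, and without either of these 1 endothelial marker was higher. The single higher markers of pericytes and smooth muscle, of fibroblasts and of muscle were all lost without either Sox2-labelled replicate or without control-labelled replicate 2, and that of red cells without Sox2-labelled replicate 2. Under the robust variance model, 9 AT1, 3 AT2 and 4 endothelial markers were higher, and 4 basal markers were lower. Limma called none of the cell type markers when low genes were kept in. The part of these shifts in the results below was not tested, and in RNA from a pool of cells, fewer cells of a type and less RNA per cell cannot be told apart.

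Few potassium channel genes were expressed. Of the 94 members, 16 averaged at least 1 FPKM over the 4 libraries and were tested, and 78 were not. Of those 78, 12 were listed at 0 in every library (among them Kcna10, Kcng1 and Kcnv1), 37 (these 12 included) stayed under 0.1 FPKM in every library, and 5 reached 1 FPKM in at least 1 library. The highest untested mean was 0.935 FPKM (Kcnmb2), and the lowest tested mean was 1.10 FPKM (Kcnk3). Between 13 and 15 members reached 1 FPKM per library. The tested members came from 7 of the 14 channel classes.

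A different gene led the family under each label. Summed over all members, the level was 207 and 284 FPKM in the Sox2-labelled libraries and 130 and 102 FPKM in the control-labelled ones. The beta subunit Kcne2 held 54.6% and 69.3% of that sum in the Sox2-labelled libraries, against 5.11% and 0.884% in the control-labelled ones. The leak channel Kcnk1 led in the control-labelled libraries with 41.3% and 55.7%, followed by the related Kcnk13 with 23.4% and 13.0%. In the Sox2-labelled libraries, Kcnk1 held 9.49% and 11.1%, and Kcnk13 held 0.204% and 0.00790%. Without Kcne2 the sum was 94.1 and 87.1 FPKM against 124 and 101 FPKM, so on the deposited scale the order of the groups turned round. Median-of-ratios rescaling raised the family sum of Sox2-labelled replicate 2 and lowered that of control-labelled replicate 1. The turned order does not hold between these 2 libraries after it and so depends on the scaling. The 78 untested members added only 10.2 to 12.2 FPKM per library. The smallest p that an exact permutation of 2 against 2 libraries can give for a sum is 0.333, so none is given.

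**Figure D1:**
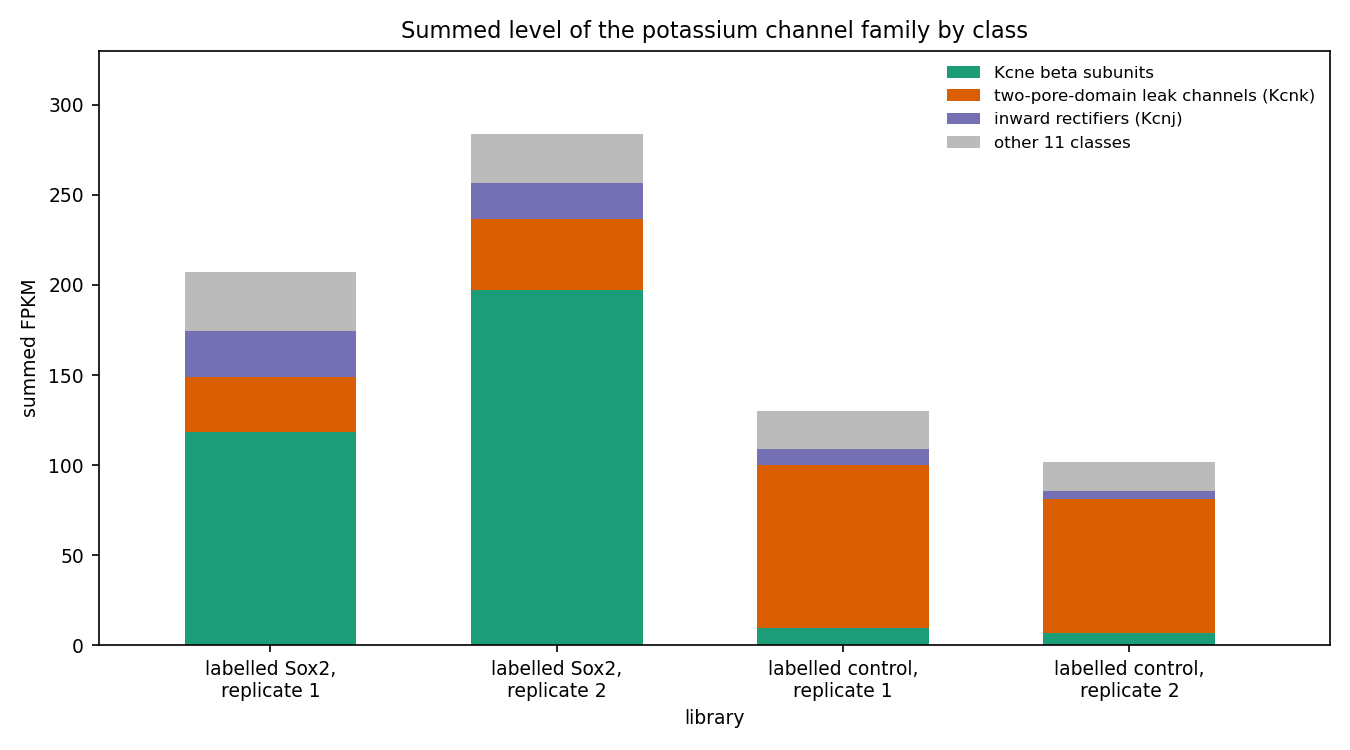
Summed FPKM of the potassium channel family in each of the 4 libraries (horizontal axis), stacked by channel class on a linear axis from 0. The Kcne beta subunits fill most of the bars labelled Sox2 (118 and 197 FPKM), and the Kcnk leak channels, shown in the legend by the name of their paired pore domains, fill most of the bars labelled control (90.5 and 74.8 FPKM).

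Between the labels, 4 of the 16 tested members were higher in the Sox2-labelled libraries (among them Kcne2, Kcnj13 and Kcnj15), 1 was lower (Kcnk13), and 11 did not pass. The same call was made for 4.2% of all tested genes upward and 8.11% downward, or 12.3% in either direction. Those shares stand for 506 higher and 976 lower genes, a split that was 964 and 686 after median-of-ratios rescaling, under which all 5 members stayed called. Values of the 2 groups did not overlap in 9 members with the Sox2-labelled libraries above, against 15.7% of all tested genes, and in 2 members with them below, against 42.5%. In either direction that is 11 of 16 members, beside 58.1% of all tested genes. The median log2 difference of the 16 members was 0.59, beside -0.29 for all tested genes, and 0.78 and 0.70 after the rescalings. Kcnk13 and Kcne3 entered the tested set through the control-labelled libraries alone, being under 1 FPKM in both Sox2-labelled libraries, and Kcnk3 did the reverse. The control-labelled mean of Kcnk6 was also under the filter, at 0.703 FPKM (1.02 and 0.387 FPKM). These counts and the median are therefore a description of the members that passed the filter. When low genes were not filtered out, limma called none of the 16, while 6 of them had an unadjusted p under 0.05.

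**Figure D2:**
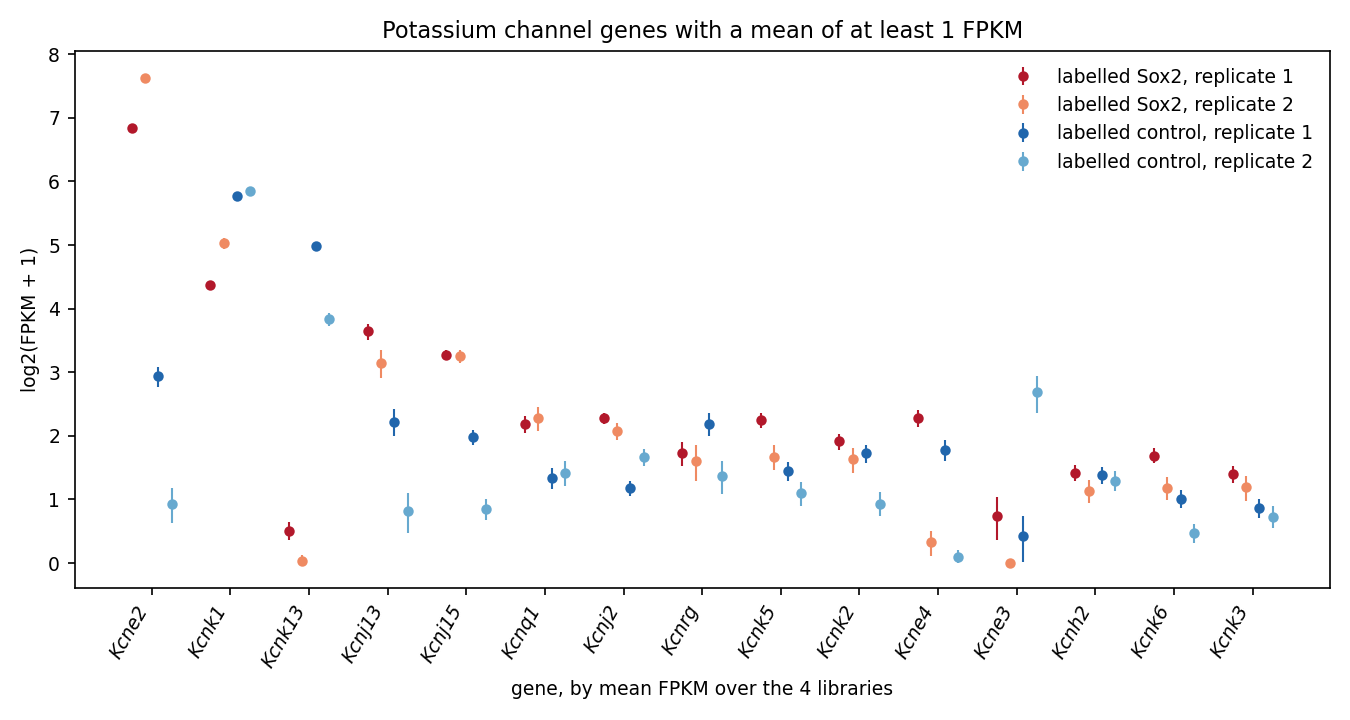
Level of 15 tested potassium channel genes as log2(FPKM + 1) (vertical axis), with genes ordered by their mean FPKM; each point is 1 library and each bar spans the deposited lower and upper bounds. Kcne2 spans the widest range, from 197 FPKM down to 0.901 FPKM, and Kcnk13 lies between 13.2 and 30.5 FPKM in the control-labelled libraries and below 0.5 FPKM in the Sox2-labelled ones.

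Kcne2 is a beta subunit that assembles with the pore subunits Kcnq1 and Kcnh2, among others. Its level was 113 and 197 FPKM in the Sox2-labelled libraries and 6.65 and 0.901 FPKM in the control-labelled libraries. The groups lay far apart, and the 2 libraries of each label also differed from each other by more than their deposited bounds (110 to 116 and 191 to 203 FPKM; 5.84 to 7.46 and 0.547 to 1.26 FPKM). The means were 155 ± 59.1 and 3.78 ± 4.06 FPKM (SD, n = 2), 41.1-fold apart, and on the log2 scale the difference was 5.30 (SE 0.56, limma adjusted p = 4.67e-04). The fold was 172 without control-labelled replicate 1 and 23.3 without control-labelled replicate 2. The adjusted p in limma was at most 0.0134 with any 1 library left out, but in each such fit, here and below, 1 label has a lone library that is assumed to vary like the other group. With no filter on low values the adjusted p in limma was 0.0788. In the ranking of all genes by FPKM, Kcne2 stood at place 458 and 205 in the Sox2-labelled libraries and at place 7581 and 11529 in the control-labelled ones.

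Kcne2 lies on chromosome 16 at 92292389 to 92298133 (mm10). Its relative Kcne1 lies on the same chromosome at 92346001 to 92359468 and did not exceed 0.0176 FPKM. The nearest listed genes on either side are Mrps6, a mitochondrial ribosomal protein, and Smim11, a small membrane protein. Mrps6 stood at 20.7 and 26.6 FPKM in the Sox2-labelled libraries against 76.1 and 54.7 FPKM, and Smim11 at 22.3 and 15.8 FPKM against 28.4 and 28.2 FPKM. Values of both neighbours were lower in the Sox2-labelled libraries without overlap, which held for 42.5% of all tested genes.

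The 250 bases before the annotated start are shown for Kcne2, Kcnj15, Kcnj13 and Kcnk13, from the RefSeq promoter table (GRCm38.p6, the same assembly as mm10), because their levels differed between the labels. The table matched 69 of the 94 members and 12 of the 16 tested ones. Capitals mark matches, on either strand, to 4 short motifs chosen with the results known. A common form of the SOX core, ACAAAG, occurs in windows of this length in 16.5% of all 32851 promoters of the table. Another form of that core, ACAATG, occurs in 10.7% of them. For NKX2 factors, among them the lung regulator Nkx2-1, the search string CAAGTG occurs in 11.6%. For TEAD factors, the DNA-binding partners of YAP and TAZ, the string GGAATG occurs in 12.6%.
Kcne2 promoter (chr16:92292139-92292388, plus strand): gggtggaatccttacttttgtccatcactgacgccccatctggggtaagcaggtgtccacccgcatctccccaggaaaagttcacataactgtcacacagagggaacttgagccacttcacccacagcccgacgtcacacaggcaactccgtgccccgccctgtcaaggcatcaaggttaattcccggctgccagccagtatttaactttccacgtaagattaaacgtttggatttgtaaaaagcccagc
Kcnj15 promoter (chr16:95257308-95257557, plus strand): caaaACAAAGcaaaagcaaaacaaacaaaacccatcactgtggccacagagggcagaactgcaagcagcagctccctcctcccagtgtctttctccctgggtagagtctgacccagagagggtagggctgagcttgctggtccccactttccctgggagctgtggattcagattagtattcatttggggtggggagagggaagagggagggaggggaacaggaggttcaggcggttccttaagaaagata
Kcnj13 promoter (chr1:87394730-87394979, minus strand): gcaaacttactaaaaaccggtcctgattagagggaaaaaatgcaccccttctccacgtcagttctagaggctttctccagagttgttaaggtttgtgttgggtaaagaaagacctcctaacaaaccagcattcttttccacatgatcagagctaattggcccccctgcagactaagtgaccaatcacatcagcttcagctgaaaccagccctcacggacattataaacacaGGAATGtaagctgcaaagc
Kcnk13 promoter (chr12:99964249-99964498, plus strand): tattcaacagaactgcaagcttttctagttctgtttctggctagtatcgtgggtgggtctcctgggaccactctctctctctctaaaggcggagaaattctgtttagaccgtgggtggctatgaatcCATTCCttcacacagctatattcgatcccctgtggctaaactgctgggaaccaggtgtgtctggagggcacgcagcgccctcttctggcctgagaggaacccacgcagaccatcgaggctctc
The Kcne2 window holds none of the 4 motifs, and neither does the window before its second annotated start. The Kcnj15 window has 1 match, ACAAAG, whose first base is at position -246 from the start. GGAATG occurs in the Kcnj13 window at position -19 and, on the opposite strand, in the Kcnk13 window at position -123. A match is a string of letters and not a shown binding site, and a window without a match says nothing of the factor.

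Kcnq1 and Kcnh2, the pore subunits named above as partners of Kcne2, were expressed at low levels. Kcnq1, the voltage-gated pore of several epithelia, stood at 3.56 and 3.84 FPKM in the Sox2-labelled libraries and at 1.53 and 1.67 FPKM in the control-labelled libraries. The groups did not overlap and replicates lay close together, but the log2 difference of 0.86 (SE 0.38) did not pass (limma adjusted p = 0.164). Kcnh2, the ERG pore best known from the heart, stood at 1.67 and 1.20 FPKM, against 1.60 and 1.46 FPKM under the label control, and its groups overlapped (log2 difference -0.061, SE 0.38, limma adjusted p = 0.936). That sign turned under both rescalings. The FPKM of Kcne2 was 31.8 and 51.3 times that of Kcnq1 in the Sox2-labelled libraries, and 4.36 and 0.540 times in the control-labelled ones. Of the other members of the Kcnq class, Kcnq3, which is mainly neuronal, was listed at 0 throughout, and Kcnq5 did not exceed 0.487 FPKM. The other Kcnh genes did not exceed 0.279 FPKM, apart from Kcnh1 with 1.37 FPKM in control-labelled replicate 2 and 0.244 to 0.310 FPKM elsewhere.

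The remaining Kcne subunits did not follow Kcne2. Kcne3, which holds Kcnq1 open in epithelia, stood at 0.665 and 0 FPKM in the Sox2-labelled libraries and at 0.343 and 5.43 FPKM in the control-labelled ones. A single library, control-labelled replicate 2, was high, and its bounds (4.13 to 6.72 FPKM) lay above those of the other 3. The log2 difference was -1.19 (SE 0.63, limma adjusted p = 0.236); it was -2.32 without control-labelled replicate 1, where replicate 2 alone stood for that label, and -0.058 without control-labelled replicate 2. Kcne4, an inhibitory subunit of Kcnq1, stood at 3.86 and 0.255 FPKM, against 2.45 and 0.0688 FPKM under the label control. It was high in the first library of each label. The fibroblast marker sum was higher in the same libraries (699 and 479 FPKM, against 233 and 105 FPKM). That order was not particular to fibroblasts. The AT2, endothelial, pericyte and smooth muscle, leukocyte and muscle sums were higher in these libraries too. The part of any of these cells was not tested. The Kcne4 difference of 0.36 (SE 0.67, limma adjusted p = 0.766) turned to -0.61 without Sox2-labelled replicate 1 and to -0.48 without control-labelled replicate 2. Kcne1l did not exceed 0.520 FPKM.

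Inward rectifiers pass potassium more easily into the cell than out of it and hold the resting voltage. Of the 15 Kcnj members 3 were tested, and 2 of these were higher in the Sox2-labelled libraries. Kcnj15 stood at 8.65 and 8.55 FPKM there, against 2.95 and 0.799 FPKM. Sox2-labelled replicates differed by less than their bounds, while the control-labelled ones differed by more. The means were 8.60 ± 0.0728 and 1.87 ± 1.52 FPKM (SD, n = 2), 4.59-fold apart, and the difference on the log2 scale was 1.85 (SE 0.45, limma adjusted p = 0.0242). Kcnj13, a channel of ion-transporting epithelia such as the choroid plexus and retinal pigment epithelium, stood at 11.5 and 7.85 FPKM, against 3.68 and 0.766 FPKM under the label control. The groups did not overlap, and the lower library of each label was replicate 2. The means were 9.68 ± 2.58 and 2.22 ± 2.06 FPKM (SD, n = 2), 4.36-fold apart, and the difference on the log2 scale was 1.87 (SE 0.49, limma adjusted p = 0.0331).

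Both calls were lost in 3 of the 4 fits with 1 library left out. The fold of Kcnj15 was 10.8 without control-labelled replicate 1 and 2.92 without control-labelled replicate 2, and that of Kcnj13 was 12.6 and 2.63. Without Sox2-labelled replicate 1, Sox2-labelled replicate 2 or control-labelled replicate 2, the adjusted p in limma was 0.125, 0.189 and 0.132 for Kcnj15. For Kcnj13 it was 0.186, 0.161 and 0.172. In the GENCODE M21 annotation, 49.1% of the exon bases of Kcnj13 lie on the opposite strand of exons of Gigyf2, a translation repressor gene. Gigyf2 stood at 7.85 and 4.59 FPKM, against 8.99 and 5.17 FPKM under the label control, and since the strand setting of the counting is not given, reads of the 2 genes may have been shared and the Kcnj13 level is uncertain. In Kcnj15 a smaller share of exon bases (5.27%) lies opposite an antisense gene, and in Kcne2 and Kcnk13 none does. A filter at a mean of 5 FPKM also ended both calls (limma adjusted p = 0.0556 for Kcnj15 and 0.0599 for Kcnj13).

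Kcnj2, the classical strong rectifier of muscle and endothelium, stood at 3.85 and 3.21 FPKM in the Sox2-labelled libraries and at 1.26 and 2.19 FPKM in the control-labelled ones. The groups did not overlap, but the log2 difference of 0.75 (SE 0.40) did not pass (limma adjusted p = 0.235). Kcnj8, which forms the ATP-sensitive channel of mural cells, did not exceed 0.861 FPKM, and its sulfonylurea partner Abcc9 did not exceed 0.448 FPKM. Kcnj1, Kcnj3, Kcnj6 and Kcnj9 were listed at 0 in every library. Kcnj6 and Erg are the listed neighbours of Kcnj15 on either side, on chromosome 16. Erg stood at 3.75 and 1.91 FPKM in the Sox2-labelled libraries against 1.02 and 0.412 FPKM. Its Sox2-labelled values were thus above without overlap, like those of Kcnj15 and of 15.7% of all tested genes.

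**Figure D3:**
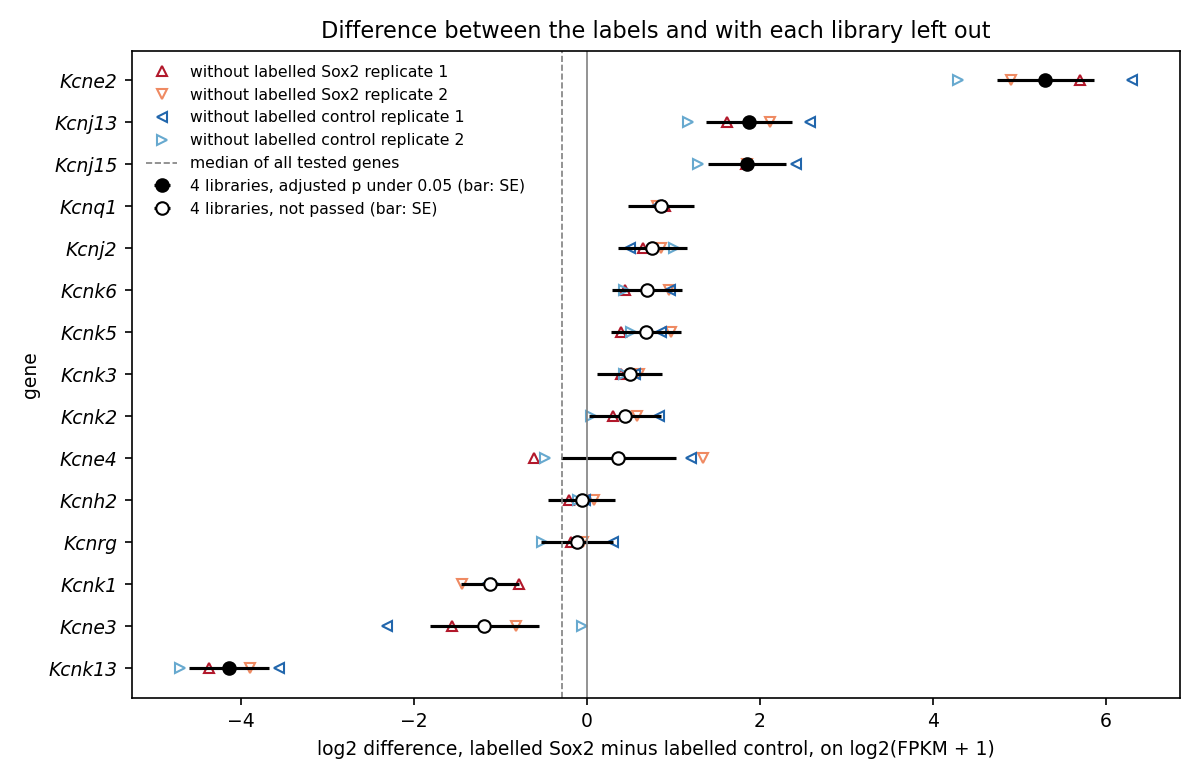
Log2 difference of 15 tested potassium channel genes, labelled Sox2 minus labelled control, on log2(FPKM + 1) (horizontal axis): circles use all 4 libraries with the SE as bar (filled where adjusted p in limma is under 0.05), and triangles leave 1 library out. Kcne2 (5.30) and Kcnk13 (-4.14) stay far from 0 in each fit, while Kcne4 (0.36) lies on either side of 0 depending on the library left out; the dashed line is the median of all tested genes, -0.29.

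The Kcnk genes encode leak channels, which are open at rest and set the background potassium conductance. Of 14 members 6 were tested, and 1 of these, Kcnk13, was called. Kcnk13, a leak channel best known from microglia, stood at 0.423 and 0.0224 FPKM in the Sox2-labelled libraries and at 30.5 and 13.2 FPKM in the control-labelled libraries. Both control-labelled libraries were above both labelled Sox2, and the bounds were apart as well (at most 0.562 FPKM against at least 12.2 FPKM). The means were 0.223 ± 0.283 and 21.9 ± 12.2 FPKM (SD, n = 2), and the log2 difference was -4.14 (SE 0.46, limma adjusted p = 6.68e-04).

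The mean of Kcnk13 was 98.3-fold higher in the control-labelled libraries, a ratio that turns on very low values. It was 976 without Sox2-labelled replicate 1, 51.7 without Sox2-labelled replicate 2 and 59.5 without control-labelled replicate 1. The adjusted p in limma was at most 0.0149 with any 1 library left out. With no filter on low values the adjusted p in limma was 0.0788. Kcnk13 lies on chromosome 12 at 99964499 to 100062682 (mm10). Its listed neighbours are Tdp1, a DNA repair enzyme, and Psmc1, a proteasome subunit. Tdp1 stood at 5.18 and 2.28 FPKM in the Sox2-labelled libraries against 11.9 and 7.15 FPKM. Psmc1 stood at 42.1 and 33.1 FPKM against 88.0 and 56.7 FPKM. Both neighbours were thus lower in the Sox2-labelled libraries without overlap, as were 42.5% of all tested genes. The basal markers Dapl1, Adh7, Itgb4 and Trp63 were lower in the Sox2-labelled libraries as well (log2 differences -6.17, -4.96, -3.39 and -2.79). Of the other tested basal markers, Cav1 was higher, and Aqp3 and Krt15 (1.75 and 1.60 FPKM against 1.46 and 1.43 FPKM) did not pass. Krt5, Krt14 and Ngfr were too low to be tested and did not exceed 0.686, 0.101 and 0.230 FPKM. Basal sums without Cav1 were 5.79 and 4.29 FPKM against 77.8 and 282 FPKM. The call of Trp63 was lost without Sox2-labelled replicate 1 (limma adjusted p = 0.0779) or replicate 2 (0.126). Leukocytes, the class microglia belong to, had marker sums of 75.3 and 45.1 FPKM against 32.2 and 14.2 FPKM. The part of either cell type in the Kcnk13 difference was not tested.

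Kcnk1, the founding member of the leak channels, was the most abundant family member in both control-labelled libraries. Its level was 19.7 and 31.6 FPKM in the Sox2-labelled libraries and 53.7 and 56.8 FPKM in the control-labelled libraries. The groups did not overlap, and the control-labelled libraries differed by less than their bounds. The log2 difference of -1.12 (SE 0.33) just missed the threshold (limma adjusted p = 0.0521). Among the fits without a replicate block it passed under the robust variance model (0.0292) and without control-labelled replicate 1 (0.0455). Under median-of-ratios rescaling it was -0.77 (limma adjusted p = 0.241).

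The other 4 tested leak channels were low in all libraries and did not pass. The acid-sensitive Kcnk5 stood at 3.73 and 2.19 FPKM in the Sox2-labelled libraries and at 1.73 and 1.15 FPKM in the control-labelled ones. Kcnk6 stood at 2.23 and 1.27 FPKM against 1.02 and 0.387 FPKM. Kcnk3, also acid-sensitive, stood at 1.64 and 1.28 FPKM, against 0.828 and 0.661 FPKM under the label control. In each of these 3 the values of the groups did not overlap, with log2 differences of 0.68 (SE 0.41), 0.69 (SE 0.41) and 0.49 (SE 0.38). Their deposited bounds did overlap between the groups. The stretch-activated Kcnk2 stood at 2.77 and 2.10 FPKM, against 2.31 and 0.913 FPKM under the label control, and its groups overlapped (0.44, SE 0.42). The adjusted p in limma was 0.291, 0.283, 0.421 and 0.530 for Kcnk5, Kcnk6, Kcnk3 and Kcnk2. Of the 8 untested members Kcnk7 reached 1.47 FPKM in control-labelled replicate 2 and at most 0.348 FPKM elsewhere, and Kcnk9, Kcnk15 and Kcnk16 were listed at 0 throughout.

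Kcnrg, which hinders the assembly of voltage-gated pores, stood at 2.32 and 2.04 FPKM in the Sox2-labelled libraries and at 3.57 and 1.59 FPKM in the control-labelled ones. The groups overlapped, and the log2 difference of -0.11 (SE 0.42, limma adjusted p = 0.891) turned to 0.14 and 0.069 under the rescalings and to 0.30 without control-labelled replicate 1. No member of the other 7 classes was tested. The calcium-activated pore Kcnma1, which opens on voltage and calcium together, did not exceed 0.286 FPKM. Of its beta subunits Kcnmb4 reached 1.31 FPKM in Sox2-labelled replicate 1, and Kcnmb2 stood at 0.804 and 0.567 FPKM, against 1.07 and 1.30 FPKM under the label control. The Kcnn channels, opened by calcium through calmodulin, did not exceed 0.564 FPKM. Among them Kcnn4, the form of blood cells and epithelia, was measured at 0.289 and 0.366 FPKM, against 0.0586 and 0.0592 FPKM under the label control. The Kv beta subunit Kcnab2 reached 1.23 FPKM in control-labelled replicate 2, and the Kcnip proteins, calcium-binding partners of Kv4 pores, did not exceed 0.642 FPKM. The silent modifier subunits, which need another pore subunit to form a channel, did not exceed 0.827 FPKM, and the sodium-activated and sperm channels did not exceed 0.0678 FPKM.

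Genes that work with potassium channels were taken from 5 lists chosen by the part their genes play, with earlier results of these data known. Of 9 further partner subunits 2 were tested, and 1 of these was lower in the Sox2-labelled libraries. This was Lrrc26, a partner that lets the Kcnma1 pore open at lower voltage, at 2.31 and 2.22 FPKM against 7.81 and 59.5 FPKM (log2 difference -2.82, SE 0.69, limma adjusted p = 0.0253). Of 8 tested genes for sodium-potassium and proton-potassium pumps 0 were higher, 3 were lower and 5 did not pass. The lower ones were the pump regulators Fxyd6 (-4.17) and Fxyd3 (-2.08) and the proton-potassium pump Atp12a (-2.14). Atp1b1, a beta subunit of the sodium-potassium pump, stood at 122 and 104 FPKM, against 60.7 and 64.4 FPKM under the label control, and did not pass. None of 4 tested potassium-coupled cotransporters passed, among them Slc12a2 (log2 difference -0.61) and Slc12a4 (0.19).

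Of 14 tested chloride and bicarbonate channels and exchangers 4 were higher, 1 was lower and 9 did not pass. Clic5, an AT1 marker too, had a log2 difference of 3.66, Slc26a9 of 2.06 and the calcium-activated chloride channel Ano1 of 1.81, while that of Clic1 was -2.02. Of 7 epithelial sodium and water channel genes 5 were higher and 2 did not pass. The largest log2 differences were those of the water channels Aqp1 (5.11) and Aqp5 (4.14) and the sodium channel subunits Scnn1g (4.64) and Scnn1b (3.96). Aqp5, like Clic5, is on the AT1 list as well. The median log2 difference was -1.69 for the partner subunits, -0.85 for the pumps, -0.25 for the cotransporters, 0.01 for the chloride list and 3.96 for the sodium and water list, beside -0.29 for all tested genes. Of the 12 called genes named here, 7 stayed called with any 1 library left out. The calls of Lrrc26, Fxyd3, Slc26a9 and Ano1 were lost without Sox2-labelled replicate 1 (limma adjusted p = 0.0970, 0.112, 0.181 and 0.111), Sox2-labelled replicate 2 (0.164, 0.196, 0.131 and 0.223) or control-labelled replicate 2 (0.0760, 0.107, 0.122 and 0.139). That of Atp12a was lost without Sox2-labelled replicate 1 (0.119) or replicate 2 (0.208). Rescaling ended the calls of Lrrc26 (limma adjusted p = 0.117 and 0.122), Atp12a (0.0604 and 0.0547) and Fxyd3 (0.188 and 0.162).

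**Figure D4:**
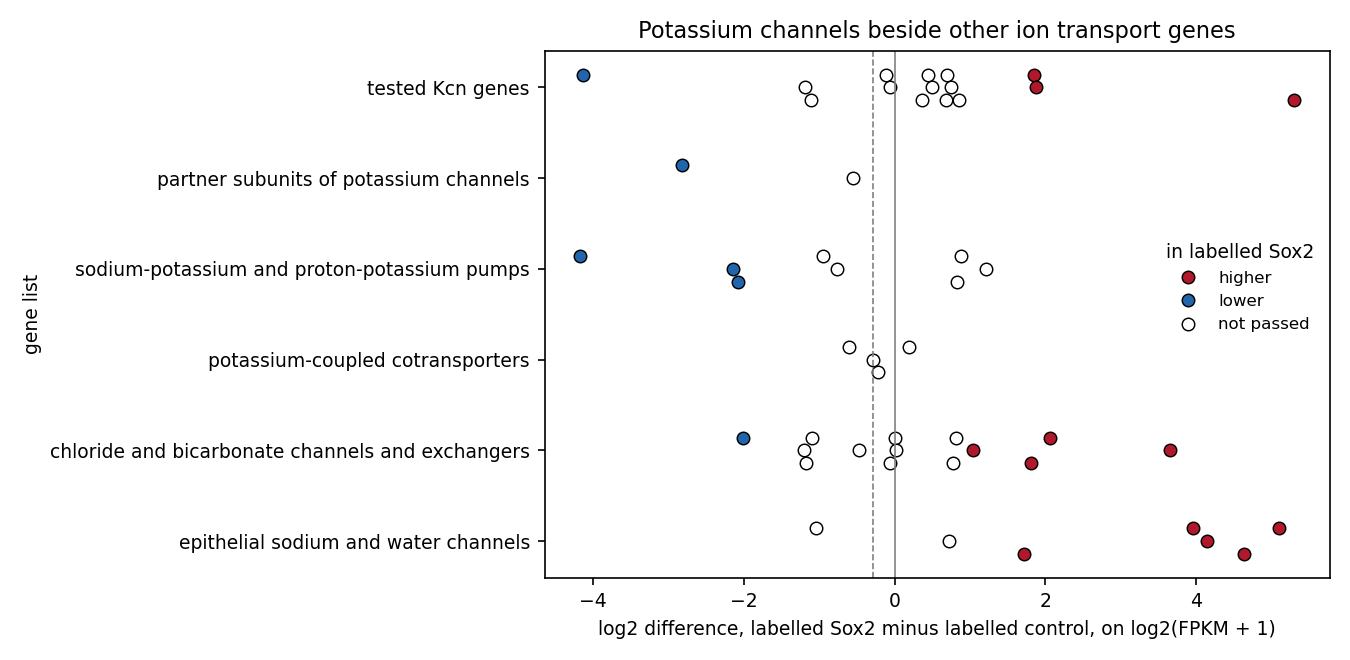
Log2 difference, labelled Sox2 minus labelled control, on log2(FPKM + 1) (horizontal axis) of 15 tested genes of the potassium channel family and of the tested genes of 5 lists of other ion transport genes (vertical axis); points are genes, filled where limma's adjusted p is under 0.05. Called Kcn genes lie on both sides of 0, called pump genes lie below 0 (-4.17 to -2.08), and called sodium and water channel genes lie above 0; vertical offsets within a list carry no value, and the dashed line is the median of all tested genes, -0.29.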

How the data were processed

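RNA of sorted cells was sequenced in 4 libraries, 2 per label, grouped by the sample titles. The authors deposited FPKM values and their bounds for each gene, per the file headers. TopHat2, Bowtie2, Cufflinks and Cuffdiff with build mm10 are named, per the submitters' processing notes; the versions, annotation and strandedness were not given in the sources used here. Without read counts, depth is unknown. No label says that libraries came from separate animals, so a p-value reflects the spread between these libraries, which may be technical. A further table holds 2 group columns with no match in the labels and was not used.

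The 24490 entries per table were joined by symbol and position, entries of the same symbol were added (267 genes), and Rn45s, flagged HIDATA and listed at 0 in 3 libraries, was left out. The 12040 genes averaging at least 1 FPKM were tested on log2(FPKM + 1) with limma 3.58.1 in R 4.3.3 (lmFit, eBayes with trend), two-sided, with Benjamini-Hochberg adjustment and a threshold of 0.05. Some genes are counted but not reported here by name. The code was tested on simulated data. Named are called members, tested members by abundance, and up to 4 called genes per list (otherwise the 2 most abundant). Members, the 5 transport lists, the 10 cell type lists and motifs were chosen with earlier results of these data known. Alternatives were a pseudocount of 0.1, no filter, a mean filter of 5 FPKM, 2 rescalings, 2 variance models, a replicate block, and leaving out each library in turn.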

Additional observations from a re-analysis of the deposited data

How the results depend on the processing

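For the family, 4 members were called higher and 1 lower. No filter gave 0 and 0 (3869 of all genes at an unadjusted p under 0.05), and a filter at a mean of 5 FPKM gave 2 higher because Kcnj13 and Kcnj15 missed the threshold. The robust variance model and the replicate block each gave 2 lower. Leaving out 1 library gave 1 to 4 higher and 1 to 3 lower. Over all tested genes, 506 were higher and 976 lower. The higher count was 0 with no filter, 964 under median-of-ratios rescaling, 980 under quantile normalization and 119 to 837 with 1 library left out. The lower count was 3 with no filter and 115 to 1312 with 1 library left out. Under median-of-ratios rescaling 686 were lower and under quantile normalization 827. The replicate numbers are not known to pair the libraries (correlation of replicate 1 minus replicate 2 between the labels, across 12040 genes, 0.23), and the replicate block gave 1142 higher and 2730 lower genes and added Kcnk1 and Kcnq1 (limma adjusted p = 0.0195 and 0.0331) to the 5 called members. Signs turned for 3 members, and the cause was not tested. Kcnh2 was 0.15 under median-of-ratios rescaling, 0.050 under quantile normalization and -0.20 to 0.080 with 1 library left out. Kcnrg was 0.14, 0.069 and -0.52 to 0.30, and Kcne4 was -0.61 to 1.34 with 1 library left out. Without the most abundant member of each library, the family sum was 94.1 and 87.1 FPKM under the label Sox2 (without Kcne2) and 76.5 and 45.1 FPKM under the label control (without Kcnk1). Under median-of-ratios rescaling the sum of Sox2-labelled replicate 2 was 375 and that of control-labelled replicate 1 was 103. A pseudocount of 0.1 and a variance model without trend kept the 5 calls. Depth is unknown, so no limit of detection can be given for the members listed at 0.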

Other observations

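The antisense and opposite-strand symbols left out of the family were low. Kcnq1ot1, the imprinted RNA that runs antisense within Kcnq1, stood at 0.734 and 0.831 FPKM in the Sox2-labelled libraries and at 0.980 and 1.08 FPKM in the control-labelled ones. Its 2 groups did not overlap, and it lay below the level tested. Kcnmb4os1 stood between 0.0529 and 0.128 FPKM, and Kcnd3os was listed at 0 in every library.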
